A study of Homo sapiens with 12 samples.

Results

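RNA levels of 10 polypeptide GalNAc transferase genes, *GALNT1*, *GALNT2*, *GALNT3*, *GALNT4*, *GALNT5*, *GALNT6*, *GALNT7*, *GALNT10*, *GALNT12* and *GALNT14*, were followed in sorted pancreatic adenocarcinoma cells. They were chosen by gene symbol and not by a measured value, though with earlier results of these data known. They are 10 of the 23346 genes in the table. SW1990 and CFPAC-1 are established human lines, both derived from metastases of pancreatic ductal adenocarcinoma, and both hold cells that carry and cells that lack the surface antigen recognised by the monoclonal antibody GCTM-5. The 4 groups were SW1990 negative, SW1990 positive, CFPAC-1 negative and CFPAC-1 positive cells, with 3 samples in each and 12 in all. No genetic change or drug treatment is named for any of them, and no difference in growth, staining or sorting between them is described. Sorting gates took cells with strong staining or with none and discarded the intermediate ones, so that each group is one end of a single cultured line. The study's methods call the samples triplicate sorts, and nothing says that they came from separate cultures, so that p-values measure the spread between these samples, which may be technical.

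Mucin type O-glycosylation starts in the Golgi apparatus, where a polypeptide GalNAc transferase moves N-acetylgalactosamine from UDP-GalNAc onto a serine or threonine of a folded protein. The product is the Tn antigen, which other enzymes extend to core structures and sialylated or fucosylated chains. The transferases overlap in the peptides they accept: *GALNT1* and *GALNT2* are widely expressed and act on many naked peptides, whereas the products of *GALNT4*, *GALNT7*, *GALNT10* and *GALNT12* prefer, in part or wholly, peptides that already carry a GalNAc. Ductal cells of the pancreas secrete and display mucins, and altered O-glycans are a known feature of pancreatic carcinoma.

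Promoter windows are shown for the 3 members that held the E-box letters CAGGTG or, on the other strand, CACCTG, a motif chosen because factors of the SNAI and ZEB families are known to bind it. Of these 3, *GALNT3* and *GALNT12* were higher in positive cells of both lines and *GALNT14* in those of CFPAC-1 but not of SW1990, and *GALNT6*, also higher in both lines, had no window to search. The RefSeq windows (build GRCh38.p14, unlike the GRCh37 gene positions given below) hold 250 bases before and 50 after a start site, and were found for 7 of the 10 members, as 10 windows in all. Each sequence reads 5′ to 3′ along the gene, with the motif in capitals. The *GALNT3* window is chr2:165794198-165794497 on the minus strand, with motifs starting 93 bases before the start site and 4 bases after it. That of *GALNT12* is chr9:98807420-98807719 on the plus strand, with its motif 79 bases before the start site. For *GALNT14*, the window chr2:31138391-31138690 on the minus strand has its motif 126 bases before the start site.
GALNT3: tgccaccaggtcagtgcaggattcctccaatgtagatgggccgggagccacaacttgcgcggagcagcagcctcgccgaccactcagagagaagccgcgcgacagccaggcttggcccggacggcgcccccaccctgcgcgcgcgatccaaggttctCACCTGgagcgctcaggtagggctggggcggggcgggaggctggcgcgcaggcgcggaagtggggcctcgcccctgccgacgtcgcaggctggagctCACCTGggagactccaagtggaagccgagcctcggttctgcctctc
GALNT12: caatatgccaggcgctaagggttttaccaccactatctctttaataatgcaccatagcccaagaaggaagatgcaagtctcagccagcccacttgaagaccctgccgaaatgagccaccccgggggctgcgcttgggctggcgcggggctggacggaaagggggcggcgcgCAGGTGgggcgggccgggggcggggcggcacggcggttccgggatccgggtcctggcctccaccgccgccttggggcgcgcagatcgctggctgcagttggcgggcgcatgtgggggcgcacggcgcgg
GALNT14: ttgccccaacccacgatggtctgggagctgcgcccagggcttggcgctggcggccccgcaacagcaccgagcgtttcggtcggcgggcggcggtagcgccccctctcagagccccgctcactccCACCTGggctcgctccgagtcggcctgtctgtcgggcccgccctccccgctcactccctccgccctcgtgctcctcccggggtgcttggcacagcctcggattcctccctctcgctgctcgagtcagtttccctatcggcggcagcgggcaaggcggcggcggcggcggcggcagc
Of all 35116 windows of the same length in the table, 20.6% held the motif at least once and 3.49% held it 2 or more times. No window of *GALNT1*, *GALNT2*, *GALNT7* or *GALNT10* held these letters, and *GALNT14* has a second window without them. *GALNT1*, *GALNT7* and *GALNT10* were nevertheless called higher in positive cells of CFPAC-1, though not of SW1990, and *GALNT2* was called in neither line. A match is a description of letters and not of binding.

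Libraries held 9969697 to 26159330 reads, recovered from the values themselves, and replicates of a group correlated at 0.968 to 0.986 over genes (Pearson, log2 scale). CFPAC-1 positive replicate 3 was the shallowest library and held the fewest genes above 0, 16135. Values are in RPKM, reads scaled to gene length and library size, which allows levels of different genes to be compared per length. All 10 members passed the filter on low values (mean RPKM of at least 0.1), and each rested on 180 to 12257 reads per sample. Tests were made with limma on log2(RPKM + 0.1) over all 16236 genes kept. Calls needed an adjusted p under 0.05 (Benjamini-Hochberg over all genes kept), and fold changes are on that log2 scale with their SE. For a single gene, an exact permutation test of 3 against 3 samples cannot go below 0.1.

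Several transferase transcripts rose in antigen positive cells of both lines, but the genes and sizes differed. In SW1990, 4 of the 10 members were higher in positive cells and 0 were lower, while 11.3% and 16.9% of all genes tested were called higher and lower. These were *GALNT3*, *GALNT12*, *GALNT5* and *GALNT6*. In CFPAC-1, 7 members were higher (*GALNT14*, *GALNT12*, *GALNT1*, *GALNT7*, *GALNT3*, *GALNT10* and *GALNT6*) and 1, *GALNT4*, was lower, beside 22.3% and 14.2% of all genes. Higher in both lines were 3, *GALNT3*, *GALNT6* and *GALNT12*, and 0 were lower in both, against 4.00% and 4.88% of all genes. The median change of the members was 0.19 in SW1990 and 0.52 in CFPAC-1, beside -0.04 and 0.05 for all genes tested. By a rule of change over 2-fold with an unadjusted p under 0.01, 3 members passed in SW1990 and 0 in CFPAC-1, where 12.1% and 9.78% of all genes passed. In sorted bulk samples, fewer cells that express a gene and less RNA per cell cannot be told apart.

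**Figure D1:**
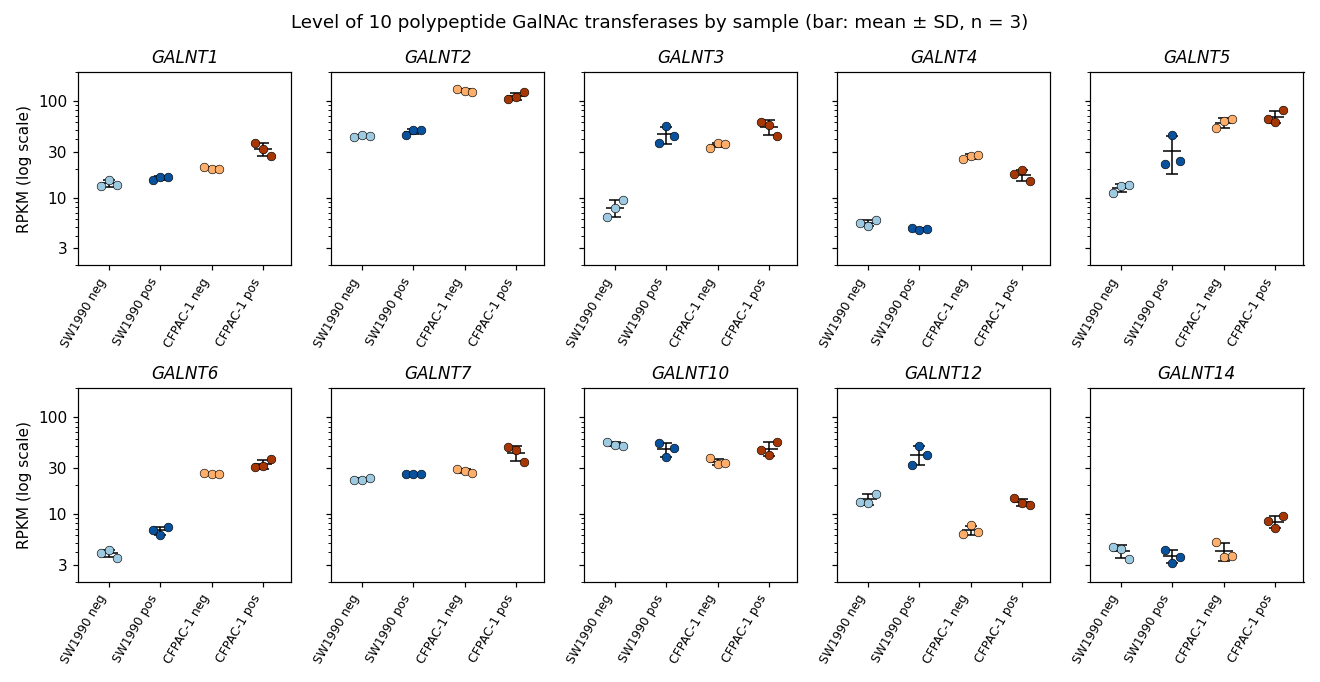
RPKM on a log axis of each transferase in the 12 samples, with the mean and SD of the 3 samples per group as bars. *GALNT3* in SW1990 ran from 6.27 to 9.41 in negative cells and from 37.0 to 54.8 in positive cells, the widest gap between the populations of a line.

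*GALNT1* and *GALNT2*, the broadly acting initiators, moved little in SW1990. *GALNT1* (GRCh37, chr18:33161081-33291798, plus strand) read 13.3, 15.2 and 13.5 RPKM in SW1990 negative cells and 15.3, 16.5 and 16.3 in positive cells. In CFPAC-1 it read 20.7, 20.0 and 19.9 in negative cells and 36.8, 31.5 and 26.8 in positive cells. Positive samples lay above negative ones in both lines, narrowly in SW1990. *GALNT1* rose by 0.64 ± 0.11 in CFPAC-1 (1.56-fold, adjusted p = 0.00101), and its difference of 0.19 ± 0.11 in SW1990 was not called (adjusted p = 0.227).

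*GALNT2* (chr1:230193737-230417868, plus strand), which among other targets glycosylates regulators of lipoprotein metabolism, was the most abundant member in 3 of the 4 groups. It read 42.4, 44.3 and 43.3 RPKM in SW1990 negative cells and 44.9, 49.8 and 49.8 in positive cells. In CFPAC-1 it read 134, 126 and 124 in negative cells and 105, 109 and 123 in positive cells. The groups did not overlap in either line, yet neither difference was called: 0.15 ± 0.08 in SW1990 (adjusted p = 0.189) and -0.19 ± 0.08 in CFPAC-1 (adjusted p = 0.0843). The CFPAC-1 difference was called lower with each sample centred on its median (adjusted p = 0.0230), after quantile normalisation (adjusted p = 0.0408) and without CFPAC-1 positive replicate 3 (adjusted p = 0.0168).

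*GALNT3* and *GALNT6* encode a closely related pair of transferases. GALNT3 is known for glycosylating the phosphate hormone FGF23, and GALNT6 for acting on fibronectin and for its raised expression in breast cancer. *GALNT3* (chr2:166604098-166651169, minus strand) had the largest change of the members in SW1990. Its level was 6.27, 7.89 and 9.41 RPKM in SW1990 negative cells and 37.0, 54.8 and 43.8 in positive cells, so that the lowest positive sample stood well above the highest negative one. In CFPAC-1, negative cells already read 32.8, 36.8 and 35.6 and positive cells 61.1, 57.1 and 43.0. *GALNT3* rose by 2.51 ± 0.18 in SW1990 (5.69-fold, adjusted p = 1.02e-06) and by 0.60 ± 0.18 in CFPAC-1 (1.51-fold, adjusted p = 0.0207). The rise in CFPAC-1 lost its call without CFPAC-1 negative replicate 1 (adjusted p = 0.0661) or 3 (0.0522), without CFPAC-1 positive replicate 1 (0.0803) or 2 (0.0594), with no filter on low values (0.0574) and after quantile normalisation (0.0520).

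*GALNT6* (chr12:51745031-51786651, minus strand) read 3.93, 4.26 and 3.54 RPKM in SW1990 negative cells and 6.88, 6.07 and 7.31 in positive cells. In CFPAC-1 it read 26.7, 26.1 and 25.6 in negative cells and 30.6, 31.1 and 36.9 in positive cells. Every positive sample lay above every negative sample of its line, and the lines were far apart. It rose by 0.77 ± 0.11 in SW1990 (1.71-fold, adjusted p = 0.000196) and by 0.33 ± 0.11 in CFPAC-1 (1.25-fold, adjusted p = 0.0342). The small CFPAC-1 rise was not called after median centring (adjusted p = 0.148) or quantile normalisation (0.146), nor without CFPAC-1 negative replicate 1 (0.0674), 2 (0.0872) or 3 (0.0980) or CFPAC-1 positive replicate 3 (0.0920). The span of *GALNT6* overlaps that of *SLC4A8*, and the use of strand in counting is not given in the sources used here.

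*GALNT5* (chr2:158114217-158175003, plus strand), a less studied member, was raised in positive cells of SW1990. It read 11.3, 13.3 and 13.5 RPKM in SW1990 negative cells and 22.2, 44.9 and 23.8 in positive cells, with replicate 2 apart from the other two. In CFPAC-1 negative cells it read 51.9, 62.2 and 64.6, and in positive cells 65.6, 60.6 and 80.2, which overlap. The rise in SW1990 was 1.18 ± 0.22 (2.26-fold, adjusted p = 0.00173), and 0.86 to 1.36 with each sample left out in turn, all of them called. In CFPAC-1 the difference of 0.20 ± 0.22 was not called (adjusted p = 0.507).

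*GALNT14* (chr2:31133333-31378068, minus strand), known for glycosylating death receptors, was the least abundant member in 3 of the 4 groups. It read 4.53, 4.39 and 3.41 RPKM in SW1990 negative cells and 4.22, 3.10 and 3.60 in positive cells, which overlap (-0.17 ± 0.18, adjusted p = 0.549). CFPAC-1 negative cells read 5.16, 3.63 and 3.64 and positive cells 8.36, 7.09 and 9.42, with every positive sample above every negative one. *GALNT14* rose by 0.99 ± 0.18 in CFPAC-1 (1.99-fold, adjusted p = 0.00158), the largest rise of a member in that line. It kept an adjusted p under 0.05 in every other fit tried and missed the rule of over 2-fold.

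The members that prefer partly glycosylated peptides did not move as one. *GALNT12* (chr9:101569952-101612363, plus strand), variants of which have been linked to colorectal cancer, read 13.3, 12.9 and 16.2 RPKM in SW1990 negative cells and 31.8, 50.3 and 40.8 in positive cells. In CFPAC-1 it read 6.22, 7.69 and 6.49 in negative cells and 14.5, 13.0 and 12.4 in positive cells. The populations were clearly apart in each line. *GALNT12* rose by 1.51 ± 0.16 in SW1990 (2.85-fold, adjusted p = 2.02e-05) and by 0.96 ± 0.16 in CFPAC-1 (1.94-fold, adjusted p = 0.000801), and both rises kept an adjusted p under 0.05 in every other fit tried, though that in CFPAC-1 missed the rule of over 2-fold.

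*GALNT7* (chr4:174089962-174245118, plus strand), a transferase that needs a GalNAc already on its acceptor, read 22.2, 22.4 and 23.7 RPKM in SW1990 negative cells and 26.0, 25.9 and 26.1 in positive cells. In CFPAC-1 it read 29.1, 27.6 and 26.7 in negative cells and 49.3, 45.7 and 34.2 in positive cells. Populations were separate in both lines, and the rise was called in CFPAC-1 (0.61 ± 0.12, 1.53-fold, adjusted p = 0.00178) but the difference in SW1990 was not (0.19 ± 0.12, adjusted p = 0.250). In SW1990 it was called without CFPAC-1 positive replicate 3 (adjusted p = 0.0342) and with the SW1990 samples fitted alone (0.0317).

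*GALNT10* (chr5:153570290-153800544, plus strand), a near relative of *GALNT7*, read 55.8, 51.1 and 51.0 RPKM in SW1990 negative cells and 54.0, 38.6 and 48.0 in positive cells, which overlap (-0.18 ± 0.14, adjusted p = 0.371). It read 37.5, 33.2 and 33.4 in CFPAC-1 negative cells and 45.3, 40.4 and 55.8 in positive cells, which do not overlap (0.43 ± 0.14, 1.35-fold, adjusted p = 0.0265). The CFPAC-1 rise was not called without CFPAC-1 negative replicate 2 (adjusted p = 0.0837) or 3 (0.0825), without CFPAC-1 positive replicate 1 (0.0520) or 3 (0.0843), with no filter (0.0602), after median centring (0.0686) or quantile normalisation (0.0804), or with the CFPAC-1 samples fitted alone (0.0560). Its span overlaps that of *MFAP3*.

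*GALNT4* (chr12:89913189-89918573, minus strand), known for glycosylating the selectin ligand PSGL-1, was the member called lower in positive cells. It read 25.0, 26.8 and 27.9 RPKM in CFPAC-1 negative cells and 17.4, 19.3 and 15.0 in positive cells, with no overlap, and fell by 0.63 on the log2 scale (SE 0.11, adjusted p = 0.00103). In SW1990 it read 5.48, 5.07 and 5.91 in negative cells and 4.87, 4.67 and 4.71 in positive cells, a difference of -0.20 ± 0.11 that was not called (adjusted p = 0.198). *GALNT4* lies within the read-through gene *POC1B-GALNT4*, which is listed with 94.33% to 98.24% as many reads per sample, and it also overlaps *POC1B*. Reads shared by these genes cannot be assigned to one of them, and its values are uncertain for that reason.

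**Figure D2:**
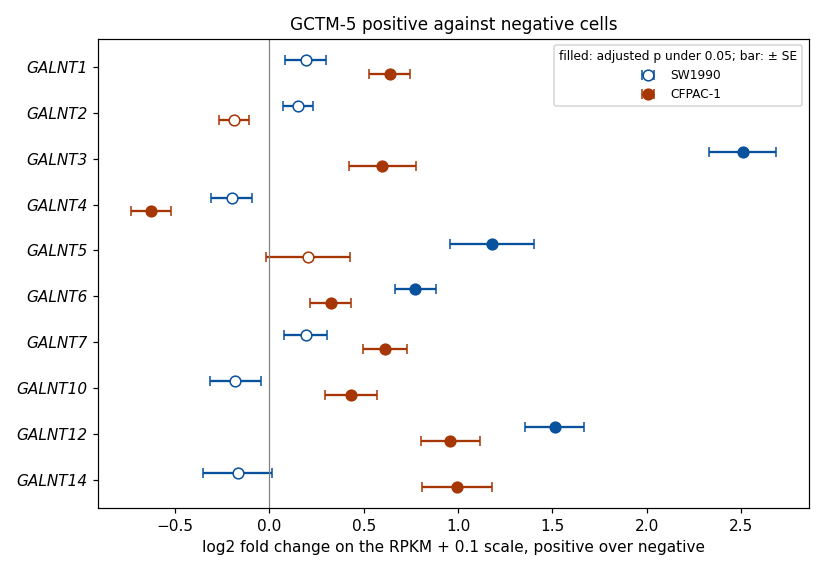
Log2 fold change of RPKM + 0.1, antigen positive over negative, with SE bars, for each transferase in SW1990 and CFPAC-1, where filled points have an adjusted p under 0.05. *GALNT3* stands at 2.51 in SW1990 and 0.60 in CFPAC-1, and *GALNT14* at -0.17 and 0.99.

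Whether the antigen linked change differed between the lines was tested as the change in SW1990 minus that in CFPAC-1. It was called for 6 members: positive for *GALNT3*, *GALNT5*, *GALNT6* and *GALNT2* (4, with 9.16% of all genes called positive) and negative for *GALNT14* and *GALNT10* (2, with 17.8% called negative). For *GALNT3* the difference was 1.91 ± 0.25 (adjusted p = 0.000227), a ratio of changes of 3.76. For *GALNT14* it was -1.16 ± 0.26 (adjusted p = 0.00616). These 2 were called under every alternative tried. The others were smaller: 0.97 ± 0.31 for *GALNT5* (adjusted p = 0.0381), -0.61 ± 0.19 for *GALNT10* (0.0338), 0.45 ± 0.15 for *GALNT6* (0.0478) and 0.34 ± 0.11 for *GALNT2* (0.0430). Each of these 4 lost its call with some samples left out: *GALNT2* with all but SW1990 positive replicate 1 and CFPAC-1 positive replicate 3 (adjusted p up to 0.103), *GALNT6* with all but SW1990 negative replicate 2, SW1990 positive replicate 2 and CFPAC-1 positive replicate 3 (up to 0.115), *GALNT10* with all but SW1990 positive replicate 1, CFPAC-1 negative replicate 1 and CFPAC-1 positive replicate 2 (up to 0.0772), and *GALNT5* with any SW1990 negative replicate, CFPAC-1 negative replicate 2 or 3, or CFPAC-1 positive replicate 1 or 2 (up to 0.0871).

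The difference was not called for *GALNT1* (-0.45 ± 0.15, adjusted p = 0.0505), *GALNT4* (0.43 ± 0.15, 0.0570), *GALNT7* (-0.42 ± 0.16, 0.0765) or *GALNT12* (0.55 ± 0.22, 0.0874). A change called in a single line, as that of *GALNT1* or *GALNT7*, was thus not shown to differ between the lines. Without CFPAC-1 positive replicate 3, the shallowest library, *GALNT1* (adjusted p = 0.00585) and *GALNT7* (0.00111) were called and 7 members in all. That library was the lowest of its group for *GALNT1*, *GALNT3*, *GALNT4*, *GALNT7* and *GALNT12* and the highest for *GALNT2*, *GALNT5*, *GALNT6*, *GALNT10* and *GALNT14*. *GALNT4* was called without SW1990 negative replicate 3 (0.0482) or CFPAC-1 positive replicate 2 (0.0260), and *GALNT12* without SW1990 positive replicate 1 (0.0179). Other settings also called *GALNT1*: a pseudocount of 1 (0.0452), a mean RPKM of at least 1 (0.0484) and voom (0.0419). *GALNT4* was called with a pseudocount of 1 (0.0395), and after quantile normalisation *GALNT4* (0.0206) and *GALNT12* (0.0494) were called. The median difference over all genes was -0.15, which median centring brought to 0.0008. Relative to this shift the members' median of 0.39 lay higher. After median centring, 1987 genes were called positive and 1988 negative, against 1487 and 2887 as reported, *GALNT10* was no longer called (0.0930), and *GALNT4* (0.0213) and *GALNT12* (0.0355) were, for 7 members in all.

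The lines themselves differed in nearly all members. Among negative cells, 7 members were lower in SW1990 than in CFPAC-1 and 2 were higher, beside 28.2% and 40.7% of all genes. *GALNT6* was lower by the widest margin (-2.71 ± 0.11, 6.56-fold, adjusted p = 1.14e-09), followed by *GALNT4* (-2.26 ± 0.11), *GALNT5* (-2.22 ± 0.22), *GALNT3* (-2.16 ± 0.18), *GALNT2* (-1.56 ± 0.08), *GALNT1* (-0.52 ± 0.11) and *GALNT7* (-0.29 ± 0.12). *GALNT12* (1.04 ± 0.16, adjusted p = 8.37e-05) and *GALNT10* (0.60 ± 0.14, adjusted p = 0.00176) were higher in SW1990. *GALNT14* stood at like levels, 4.11 ± 0.61 and 4.14 ± 0.88 RPKM (SD, n = 3), a difference of -0.003 ± 0.18. The call of *GALNT7* (adjusted p = 0.0418) was lost with 9 of the 12 samples left out one at a time, all but CFPAC-1 positive replicates 1, 2 and 3, at adjusted p of up to 0.117. All genes had a median of 0.19 in this comparison, and median centring took it to 0.006 and the genes called higher and lower from 6610 and 4571 to 5574 and 5520. Every member called here kept its direction under both scalings.

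Among positive cells, 7 members were lower in SW1990 and 1 was higher, beside 29.3% and 32.9% of all genes. *GALNT6* was again the furthest apart (-2.27 ± 0.11, 4.81-fold, adjusted p = 6.91e-09). *GALNT4* (-1.83 ± 0.11), *GALNT5* (-1.25 ± 0.22), *GALNT2* (-1.22 ± 0.08), *GALNT14* (-1.17 ± 0.18), *GALNT1* (-0.97 ± 0.11) and *GALNT7* (-0.71 ± 0.12) were lower too, and *GALNT12* was higher (1.60 ± 0.16, 3.02-fold, adjusted p = 3.40e-06). *GALNT3*, 4.48-fold lower in SW1990 among negative cells, was not called among positive ones, where the lines overlapped (-0.25 ± 0.18, adjusted p = 0.238). *GALNT10* did not differ detectably either (-0.01 ± 0.14, adjusted p = 0.948). The comparisons of lines and of populations use the same 12 samples, so that they are not independent of each other.

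**Figure D3:**
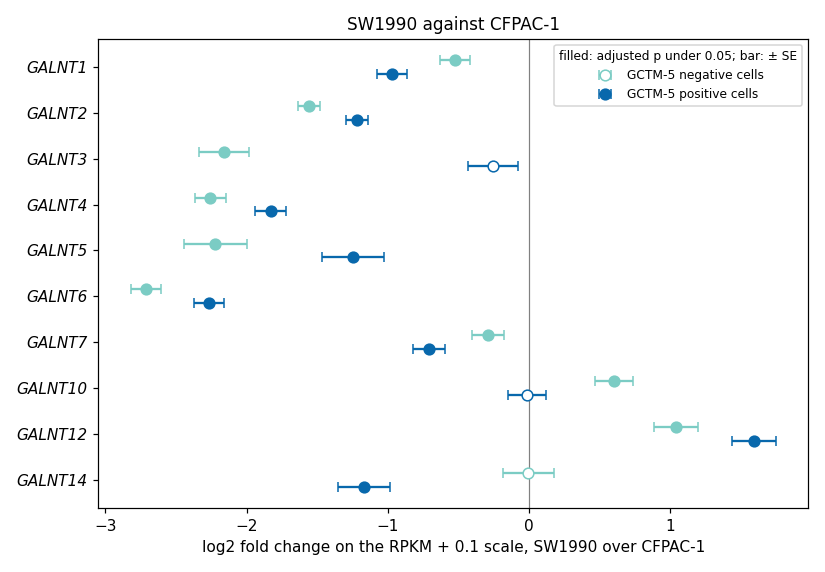
Log2 fold change of RPKM + 0.1 in SW1990 over CFPAC-1, with SE bars, for each transferase in GCTM-5 negative and positive cells, where filled points have an adjusted p under 0.05. *GALNT6*, *GALNT4*, *GALNT5* and *GALNT2* lie to the left of -1 in both populations. *GALNT12* lies to the right of 1 in both, and *GALNT3* moves from -2.16 to -0.25.

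When the 4 groups were ordered by mean level, *GALNT1* and *GALNT7* ran SW1990 negative, SW1990 positive, CFPAC-1 negative, CFPAC-1 positive, and no neighbours overlapped. *GALNT3* ran SW1990 negative, CFPAC-1 negative, SW1990 positive, CFPAC-1 positive, and of these neighbours the SW1990 positive samples (37.0 to 54.8 RPKM) overlapped the CFPAC-1 positive ones (43.0 to 61.1). *GALNT12* ran CFPAC-1 negative, CFPAC-1 positive, SW1990 negative, SW1990 positive, and the middle pair overlapped (12.4 to 14.5 against 12.9 to 16.2). *GALNT5* and *GALNT6* had the order of *GALNT1*, with overlap between the CFPAC-1 groups for *GALNT5*. *GALNT2* and *GALNT4* also had both SW1990 groups below both CFPAC-1 groups, but with CFPAC-1 negative cells highest. For *GALNT14*, CFPAC-1 positive cells stood above the other 3 groups, which overlapped, and for *GALNT10* CFPAC-1 negative cells stood below the other 3, which overlapped. *GALNT10* varied least of the members over the 12 samples (SD of log2 0.278) and *GALNT6* most (1.34).

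The summed level of the 10 genes was 178, 181 and 183 RPKM in SW1990 negative cells and 247, 295 and 264 in positive cells. It was 369, 369.6 and 368 in CFPAC-1 negative cells and 434, 415 and 436 in positive cells. Positive cells thus held more transferase transcript per length than negative cells in each line, and CFPAC-1 more than SW1990. No test was made of these sums.

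What made up the sum differed. In SW1990 negative cells *GALNT10* was the largest part at 29.1% ± 1.89 (SD, n = 3), ahead of *GALNT2* at 23.9% ± 0.468. In SW1990 positive cells *GALNT2* (18.0% ± 0.991), *GALNT10* (17.7% ± 4.40), *GALNT3* (16.7% ± 1.83) and *GALNT12* (15.1% ± 2.12) held similar parts. *GALNT3* had held 4.34% ± 0.809 and *GALNT12* 7.80% ± 0.889 in the negative cells. In CFPAC-1, *GALNT2* was largest in negative cells (34.7% ± 1.38) and in positive cells (26.2% ± 1.96), with *GALNT5* next at 16.2% ± 1.83 and 16.0% ± 2.05. *GALNT12* made up 1.84% ± 0.209 and 3.10% ± 0.249 of the CFPAC-1 sum, well under its part in SW1990. A part can fall because others rise, as that of *GALNT10* in SW1990, whose own level was not called.

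**Figure D4:**
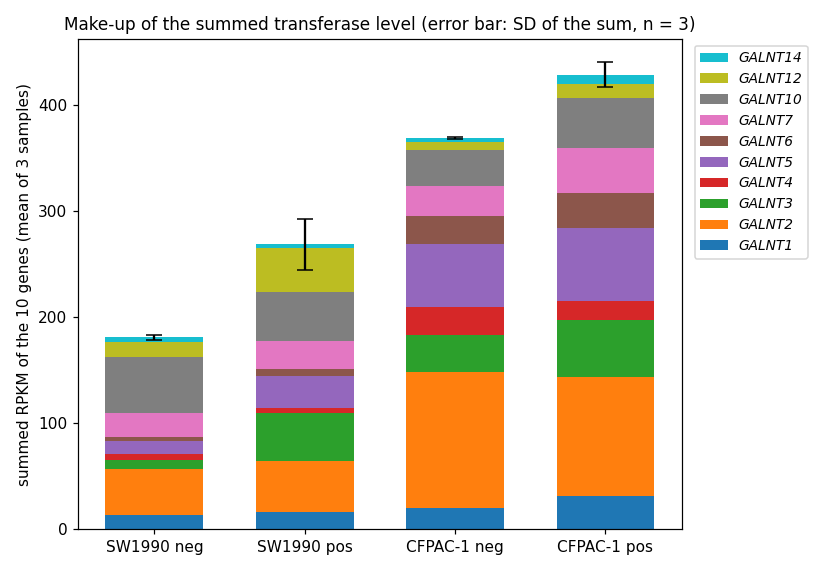
Mean RPKM of each transferase stacked by group, with the SD of the sum over 3 samples as the error bar, on a linear axis from 0. The sum is 181 RPKM in SW1990 negative cells, 269 in SW1990 positive, 369 in CFPAC-1 negative and 428 in CFPAC-1 positive cells.

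Of 10 further members in the table, 3 passed the filter, *GALNT9*, *GALNT11* and *GALNT18* (listed as *GALNTL4*), and *GALNT13*, *GALNT17* (listed as *WBSCR17*) and *GALNTL5* were at 0 in all 12 samples. *GALNT9* read 2.28, 2.66 and 2.96 RPKM in SW1990 negative cells and 2.88, 6.82 and 6.05 in positive cells, which overlap. In CFPAC-1 it read 7.11, 7.99 and 8.26 in negative cells and 2.80, 3.19 and 5.05 in positive cells, with no overlap. It was called higher in SW1990 (0.88 ± 0.29, adjusted p = 0.0403) and lower in CFPAC-1 (-1.10 ± 0.29, adjusted p = 0.0119), and these changes differed (1.99 ± 0.41, adjusted p = 0.00411). *GALNT11* read 13.5, 15.8 and 16.3 RPKM in SW1990 negative cells and 10.2, 11.1 and 11.4 in positive cells. CFPAC-1 values were 10.3, 9.01 and 9.95 in negative cells and 7.53, 8.32 and 7.52 in positive cells. It thus reached the range of several of the 10 members, and it was lower in positive cells of SW1990 (-0.48 ± 0.10, adjusted p = 0.00416) and of CFPAC-1 (-0.32 ± 0.10, adjusted p = 0.0293).

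Enzymes downstream of the transferases moved in both directions. For the counts of this and the other lists, the shares of all genes called higher and lower were 11.3% and 16.9% in SW1990 and 22.3% and 14.2% in CFPAC-1, and the medians of all genes -0.04 and 0.05. Of 12 genes for O-glycan cores and their extension, positive cells had 4 higher and 2 lower in SW1990 and 2 higher and 1 lower in CFPAC-1, with medians of -0.10 and 0.08. *B3GNT3*, which extends core 1, was 59.1 ± 8.53 RPKM in SW1990 positive and 5.42 ± 1.5 in negative cells (SD, n = 3), a rise of 3.45 ± 0.20 (adjusted p = 2.52e-07). In CFPAC-1 it was 95.1 ± 21.2 and 140 ± 11.7, a change of -0.58 ± 0.20 (adjusted p = 0.0386). The sialyltransferase *ST6GALNAC3* had the largest fall in SW1990 (-2.72 ± 0.27, adjusted p = 1.26e-05), from 0.899 ± 0.0711 to 0.0520 ± 0.0204 RPKM, and *ST6GALNAC4* the largest rise in CFPAC-1 (0.67 ± 0.17, adjusted p = 0.00863). Among 8 genes that make or carry UDP-GalNAc, positive cells had 3 higher and 1 lower in SW1990 and 1 higher and 2 lower in CFPAC-1, with medians of 0.16 and -0.24. The Golgi transporter *SLC35A2* rose in SW1990 by 0.60 ± 0.09 (adjusted p = 0.000508), while *GFPT2*, of the first step of hexosamine synthesis, went from 23.3 ± 0.840 to 5.24 ± 0.659 RPKM (-2.14 ± 0.26, adjusted p = 7.04e-05). In CFPAC-1, *GNPNAT1* rose by 0.98 ± 0.10 (adjusted p = 3.68e-05) and *PGM3* changed by -0.63 ± 0.14 (adjusted p = 0.00539), both of them enzymes of the UDP-GlcNAc branch that feeds UDP-GalNAc.

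Mucins, the classic acceptors, went opposite ways in the lines. Of 14 looked for, 12 are in the table used here and 8 passed the filter. *MUC3A* and *MUC5AC* are absent from it, so that the counts, medians and sums leave them out. In SW1990, 7 were higher in positive cells and 0 lower, with a median of 2.43. CFPAC-1 had 0 higher and 5 lower, with a median of -1.03. The difference between lines was called positive for 6 of the 8 and negative for 0, beside 9.16% and 17.8% of all genes. Summed mucin levels ran from 23.4 to 41.1 RPKM in SW1990 negative cells, 331 to 457 in SW1990 positive, 536 to 606 in CFPAC-1 negative and 289 to 338 in CFPAC-1 positive cells. *MUC20* had the largest rise in SW1990 (4.69 ± 0.46, adjusted p = 1.22e-05; 24.5 ± 16.4 RPKM in positive cells) and *MUC2* the largest fall in CFPAC-1 (-2.09 ± 0.38, adjusted p = 0.00134), from 0.597 ± 0.153 to 0.0656 ± 0.0512 RPKM. In SW1990 the called changes of the 10 members and of the mucins were all rises, while in CFPAC-1 7 of the 10 members and 0 mucins were higher.

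Ductal and mesenchymal markers moved more between the populations in SW1990 than in CFPAC-1. In CFPAC-1 the median of the ductal markers, 0.11, lay near the 0.05 of all genes. The labels give the cells as pancreatic adenocarcinoma, and all 9 ductal epithelial markers were above 0 in every group. Their sum ran from 1724 to 2033 RPKM in SW1990 negative and 4954 to 5285 in positive cells, with 7 of 9 called higher and 0 lower (median 1.57), and from 6965 to 7941 and 7573 to 9312 in CFPAC-1, with 3 higher and 1 lower (median 0.11). Of 6 mesenchymal state markers, 5 were lower in SW1990 positive cells (sum 1220 to 1401 RPKM in negative, 217 to 404 in positive) and 3 in CFPAC-1 positive cells (558 to 759 and 428 to 600), and 0 were higher in either (medians -2.27 and -0.72). Fibroblast markers summed to 12.7 to 22.6 RPKM in SW1990 negative and 3.90 to 4.86 in positive cells, with 3 of the 3 tested called lower and *THY1* at 0, and to at most 2.39 in CFPAC-1, with 0 called and *COL3A1*, *DCN* and *THY1* at 0. Endothelial markers summed to 14.8 to 18.8 RPKM in SW1990 negative cells, with *KDR* at 0, and to at most 2.05 in the other groups, and 1 of 3 tested was called lower in SW1990 and 0 in CFPAC-1. Leukocyte markers summed to 35.0 to 48.7 RPKM in SW1990 negative, 15.5 to 33.2 in SW1990 positive, 119 to 137 in CFPAC-1 negative and 112 to 167 in CFPAC-1 positive cells, with *CD3E* at 0 in both SW1990 groups and *PTPRC* at 0 in CFPAC-1 negative cells. Of 3 leukocyte markers tested, 2 were called lower in SW1990 and 1 in CFPAC-1. Acinar markers summed to at most 0.295 RPKM and islet markers to at most 0.160. The part of these markers in the transferase results was not tested.

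The pattern over the 12 samples was compared with that of 13267 genes of mean RPKM of at least 1 for the 2 members that varied most. These correlations describe 12 samples in 4 groups that share their line and sort. Closest to *GALNT6* were *WNT7A* (Pearson r = 0.994), *CTNNA1* (0.993) and *EPHB6* (0.992), with *GALNT2* the closest member (0.970). *WNT7A* averaged 0.0387 and 0.369 RPKM in SW1990 negative and positive cells and 9.26 and 13.0 in CFPAC-1, low where *GALNT6* was low. Closest to *GALNT3* were *EXPH5* (0.991), *MAL2* (0.987) and the epithelial cadherin *CDH1* (0.984), with *GALNT5* the closest member (0.840). *CDH1* averaged 12.6 and 102 RPKM in SW1990 negative and positive cells and 79.0 and 98.3 in CFPAC-1, the order seen for *GALNT3* apart from the top pair.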

How the data were processed

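RNA from 12 sorted samples, 3 in each of 4 groups of line and GCTM-5 staining, was sequenced after selection of polyadenylated RNA. Per the study's methods, the authors aligned reads to hg19 (GRCh37) and counted them with QuasR, and the deposited RPKM values are reads divided by gene length and library size. The submitters' processing notes also name bcl2fastq. The annotation, use of strand, handling of reads that match several genes and tool versions are not given in the sources used here. The methods and the labels name different library kits, secondary antibodies and media. Samples were grouped by line and sorted population from their labels.

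Each library total was recovered as the number that turns the values of genes with a single exon into whole reads, given their lengths in GENCODE 44 on GRCh37. For each gene, the smallest length that turned its values into whole reads was then taken, without use of its annotated length. All 19654 genes above 0 came out whole to within 0.01 of a read. As the lengths were fitted to the values, this is no independent check. Totals of 9969697 to 26159330 reads set the precision, and reads cover counting error only. Gene positions are from the same annotation.

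The filter kept 16236 of 23346 genes, those averaging 0.1 RPKM or more over the 12 samples. With a pseudocount of 0.1, log2 RPKM values entered limma 3.58.1 under R 4.3.3 (4 group means, eBayes with a trend, 2-sided, Benjamini-Hochberg over all genes kept). This understates changes of low genes. TCC, which the methods name, was not used. The fit was also run on simulated data, with an outcome that is not given here. Alternatives were pseudocounts of 1 and 0.01, no filter or a mean RPKM of at least 1, median centring, quantile normalisation, only the groups of a contrast, a replicate block, eBayes without a trend, voom on recovered reads, a rule of over 2-fold with p under 0.01, and each sample left out in turn. Python 3.11.15, pandas 2.3.3, numpy 2.4.6 and matplotlib 3.10.9 were used for summaries and figures.

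All 10 transferases were named. Of each further list, the gene with the largest rise and that with the largest fall among those called in a line were named, and for *GALNT11* and *GALNT9* both lines are given. For the 2 members with the largest SD, the 3 genes with the closest pattern were named. The members and lists were chosen with earlier results of these data known, and are described by counts, most with medians, beside the shares of all genes tested.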

Additional observations from a re-analysis of the deposited data

Results flagged for a closer look

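For 6 transferases the antigen linked change differed between the lines by limma's test of the difference itself (change in SW1990 minus change in CFPAC-1, log2). The values were 1.91 for *GALNT3*, 0.97 for *GALNT5*, 0.45 for *GALNT6*, 0.34 for *GALNT2*, -0.61 for *GALNT10* and -1.16 for *GALNT14*. *GALNT3* was higher in positive cells of both lines, in 3 of 3 samples in each, and *GALNT14* was higher in 3 of 3 positive samples of CFPAC-1 but overlapped in SW1990. Groups of 3 samples were not searched by a set rule for single samples that stand apart, though some are pointed out above.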

How the results depend on the processing

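As reported, 4 members were called in SW1990, 8 in CFPAC-1, 6 for the difference between lines, 9 for the lines in negative cells and 8 in positive cells. With each sample left out in turn, these counts ran from 4 to 5, 5 to 8, 2 to 7, 8 to 9 and 8 to 8. The CFPAC-1 count of 5 came without CFPAC-1 negative replicate 3. Under the rule of over 2-fold and p under 0.01 the CFPAC-1 count was 0 and that for the difference 2. The difference count was also 3 with no filter and 2 with eBayes without a trend. Replicate numbers are not stated to pair the samples, and correlations of deviations from means of 3 samples cannot settle whether they do. Same-numbered positive and negative samples deviated together with r of 0.185, 0.016 and 0.116 in SW1990. In CFPAC-1 r was -0.02, 0.001 and -0.059, and not every sample correlated best with its own number. With a replicate block the counts were 4, 7 and 4, as *GALNT6* in CFPAC-1 (adjusted p = 0.0778) and the differences of *GALNT2* (0.0783) and *GALNT6* (0.102) were not called. Of 1070 comparisons of a value with an alternative, 968 kept direction and side of the threshold, 79 lost a call, 18 gained one and 5 changed sign. The sign changes were of uncalled values near 0: *GALNT14* between lines in negative cells, at 0.014 with voom, 0.123 without SW1990 negative replicate 3 and 0.162 without CFPAC-1 negative replicate 1 (lowest -0.086), and *GALNT10* in positive cells, at 0.122 without SW1990 positive replicate 2 and 0.116 without CFPAC-1 positive replicate 3 (lowest -0.121). The cause was not tested. Median centring moved genes called higher and lower in CFPAC-1 from 3622 and 2307 to 2795 and 3056. Each member rested on at least 180 reads per sample.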
